A study of Mus musculus with 32 samples.

Results

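The 3 arrays that hold the brain of 10-day-old (P10) mice 12 h after hypoxia-ischemia (HI) were taken by their labels from the 32 two-color arrays of the series, 24 of which compare HI with naive tissue. On each array a pool of 6 HI hemispheres, labelled with Cy5, was read against its own pool of 6 hemispheres from naive mice, labelled with Cy3, so that each of the 3 arrays is 1 biological replicate with its own control. All mice were of the NMRI strain. HI at P10 was produced by permanent ligature of the right carotid under isoflurane followed by 40 min in 8% O2, and the hemisphere on the ligature side was collected without the olfactory bulb and the tissue behind the colliculus. Naive mice came from the same litters and were collected at the same time, and their right hemisphere was used. No sham-operated group entered the comparison, so anesthesia, surgery and hypoxia-ischemia cannot be told apart, and a whole hemisphere holds lesioned and spared territory. The groups used for comparison were treated in the same way: P10 at 6 h, P10 at 24 h, and P5 (5 days old) at 12 h, each with 3 arrays of its own HI and naive pools.

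Ligature of 1 carotid with a period of low oxygen lowers blood flow and energy supply in 1 hemisphere of the immature brain. The injured tissue is known to switch on stress-activated transcription factors within minutes to hours. Microglia, the resident macrophages, and astrocytes then release chemokines and cytokines that call blood leukocytes, and the interferon response, complement and scavenger genes follow. Neurons in the lesion can stop transcription or die.

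A log2 ratio below is the base 2 logarithm of the HI signal over the naive signal of 1 array, and a signal is the processed brightness of a spot in arbitrary units. Signals of different genes cannot be set against each other, because each probe has its own response. A gene was read on its brightest probe, entered the test if its signal averaged 100 or more over the arrays in either dye, and was called where limma's adjusted p was under 0.05 and the mean change passed 1.5-fold. Since a gene may pass the signal filter through the HI pools alone, low genes that rose were more likely to be tested than low genes that did not. An error after a mean is the standard error of the fit, whose spread is pooled over all 24 HI arrays. In an extract of a whole hemisphere, fewer cells of a type and less RNA per cell cannot be told apart.

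Among 12992 genes tested, 795 were called higher in the HI hemisphere (6.12%) and 522 lower (4.02%). Each list count below is to be read beside these shares. Because of the signal filter, the counts and medians of a list are no test of it. A lack of overlap between the HI and naive pools of a gene called or picked on these same arrays is no separate result. The increases were the larger changes: 226 genes rose more than 2-fold and 57 more than 4-fold, against 28 genes that fell more than 2-fold and 0 that fell more than 4-fold. Of the 1317 called genes, 744 higher and 509 lower had the same sign on all 3 arrays (95.1%). The call rests on the mean of these same arrays, so this share is in part set by it and is no measure of their agreement. A change over 1.5-fold on each of the 3 arrays was seen in 307 of the genes called higher and 111 of those called lower. Higher genes made up 60.4% of the calls, but 74.5% when each array was centred on its median (982 higher, 336 lower) and 82.4% after a normexp background correction with loess (559 higher, 119 lower), and the split thus moved with the scaling.

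The 3 arrays did not show the same breadth of change. Array 1 had 1374 genes more than 1.5-fold higher and 1131 lower, array 3 had 1279 and 1106, and array 2 had 650 and 324. Over the 20938 probes tested, log2 ratios of arrays 1 and 3 correlated with r = 0.663, of arrays 2 and 3 with 0.540 and of arrays 1 and 2 with 0.374, which was the lowest value of any pair within the 8 HI groups. Correlation rose with signal, from 0.247, 0.603 and 0.458 for pairs 1-2, 1-3 and 2-3 among the probes with signals under the 25th percentile to 0.479, 0.766 and 0.650 among those above the 75th. Probes whose adjusted p was not under 0.05 gave -0.243, 0.291 and -0.014 for the same pairs. They were picked by a p from the mean of these same arrays, which by itself lowers their correlations. Over all probes tested, arrays 1 and 3 were thus closest to each other and arrays 1 and 2 farthest apart. Of the genes over 1.5-fold higher, 308 were so on all 3 arrays, 527 on exactly 2 and 1325 on exactly 1. Lower genes numbered 116, 621 and 971 in the same order, and 67 genes passed 1.5-fold in opposite directions on different arrays.

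**Figure D1:**
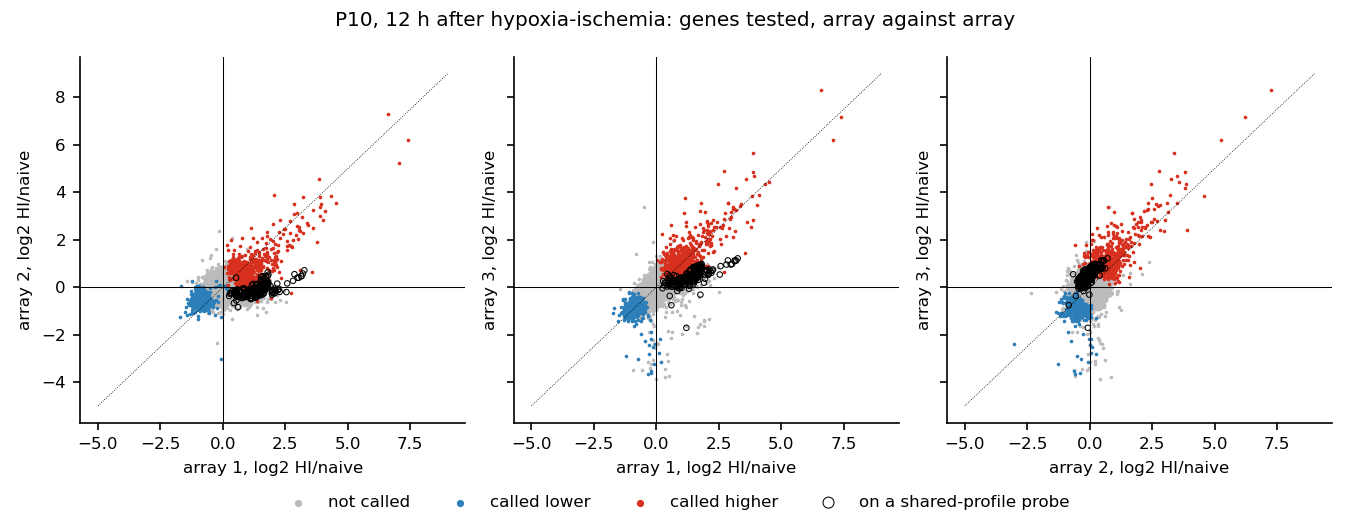
Log2 HI over naive ratios of the genes tested at P10 12 h, plotted array against array. Each point is a gene (grey not called, red called higher, blue called lower), open circles are genes read on probes of the shared profile described in the text, and the dotted line marks equal ratios. Large increases lie near the line in all 3 panels, the open circles are high on array 1 and near 0 on array 2, and a group of genes is far below 0 on array 3 only.

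Array 1 also stood apart in detection. On it 84.9% of probes in Cy3 and 91.8% in Cy5 were well above background, against 59.0 to 70.1% and 66.2 to 78.9% on the other 11 arrays of P10. The 3 arrays lay on 3 slides, 1 replicate number per slide, and the 12 h array always sat in the third position of its slide, so time point and position cannot be told apart. Counts without 1 array show what each contributed. Without array 1, 587 genes were called higher and 328 lower, without array 2 1088 and 975, and without array 3 549 and 367. Calls made with and without each array in turn numbered 367 higher and 227 lower.

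A set of bright probes rose together on array 1. Choosing after the data had been seen, 508 of 20407 probes were found to correlate above 0.9 with the brightest Elk1 probe over the other 21 HI arrays. Their median log2 ratio was 1.46 on array 1, -0.15 on array 2 and 0.41 on array 3, and their median naive signal was 3377, against 519 for all probes tested. At P10 6 h the same probes had medians of 0.81, 0.26 and 0.65, and at P10 24 h of -1.68, -0.59 and -0.32. Of the 235 genes read on these probes, 106 were called higher at 12 h and 0 lower. Other tested probes of 4 of the genes in the lists below lay near 0, and Cplx2, a release factor of synapses, had 2 further probes that rose on array 1 and 1 that did not (0.08, 0.26 and 0.38). Siglech, a microglial receptor, was read at 2.21, -0.13 and 0.61 on a shared-profile probe and at 0.15, -0.49 and 0.06 on its other tested probe. Itgam, the integrin CD11b, was read at 1.70, 0.08 and 0.53 and at 0.31, -0.15 and 0.34. Lhx6, a factor of GABAergic interneurons, gave 1.72, 0.06 and 0.50 against -0.28, 0.27 and -0.12. Cat, the enzyme catalase, gave 1.63, 0.03 and 0.57 against 0.14, 0.07 and 0.05. Without the shared-profile probes 693 genes were called higher and 525 lower, and the correlation of arrays 1 and 2 was 0.426. Of the genes in the lists below, Cat, Cplx2, Csf3r, Hemgn, Itgam, Lhx6 and Siglech were called on these probes.

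Some of the largest mean decreases came mostly from array 3. The 12 genes with the largest decrease of the same sign on all 3 arrays were Gm5127, Htr4, Stpg2, Olfr17, Olfr1037, Gpr151, Cenps, P2ry12, 2610316D01Rik, Spink8, Ccdc167 and P2ry13. Stpg2 gave log2 ratios of -0.35, -0.58 and -3.66, with naive signals of 7.17, 3.68 and 642. On this probe the naive pool of array 3 was thus far above the other pools. Relative to each array's 75th percentile its naive log2 level was 0.20 there and at most -6.26 in the 9 naive pools of the other P10 time points. Another probe of Stpg2 did not show this, with naive signals of 183, 63.1 and 34.4 and ratios of -0.29, -0.16 and -0.36. Olfr17, an olfactory receptor gene, was likewise at 1.08 in that pool against at most -4.68 elsewhere. Olfr1037 was at 0.25 against -5.91, and Gpr151, a receptor of habenular neurons, at 0.15 against -4.36. Cenps, a centromere protein gene, was at 0.01 against -0.98. On the probes read for these 5 genes no other P10 naive pool reached the level of array 3, and the decrease was largest on that array. Without array 3 the mean of Cenps was -0.56 and it was not called. Olfr17, Olfr1037, Gpr151 and the Stpg2 probe with the high naive pool did not pass the signal filter then. Htr4, the serotonin receptor 4, had ratios of -1.21, -0.50 and -2.89 and was no longer called without array 3, with a mean of -0.86. Gm5127 had -0.07, -3.01 and -2.38, with HI signals of 233, 3.05 and 7.47 well above background on 1 of 3 arrays. It was not called without array 2 (-1.23) or without array 3 (-1.54).

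Decreases shared by the 3 arrays were led by microglial and less known genes. P2ry12, the ADP receptor of resting microglia, had naive signals of 2280, 1180 and 1400 and HI signals of 694, 494 and 663. Every HI pool was below every naive pool, which is no separate result for a gene picked for its decrease. The log2 ratios -1.72, -1.26 and -1.08 averaged -1.35 ± 0.17 (adjusted p = 1.8e-05). 2610316D01Rik gave -1.52, -1.03 and -1.42 (mean -1.32 ± 0.10, adjusted p = 8.3e-08). Ccdc167, a coiled-coil protein gene, was the most even of the 12 with -1.23, -1.06 and -1.21 (mean -1.17 ± 0.07, adjusted p = 3.0e-09). Spink8, a serine protease inhibitor gene, gave -1.42, -1.15 and -1.07 and was no longer called without array 1 (mean -1.11). P2ry13, a second ADP receptor of microglia, gave -1.49, -0.82 and -1.15.

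**Figure D2:**
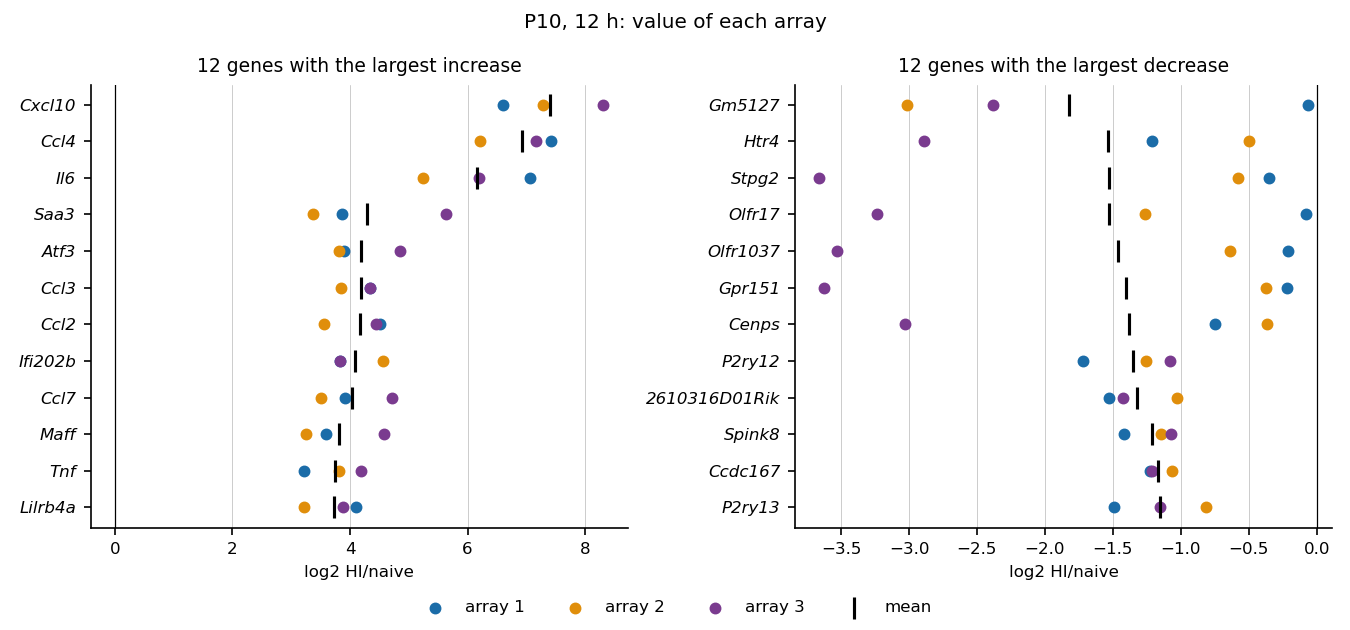
Log2 HI over naive ratios on each of the 3 arrays (colored points) and their mean (black bar) for the 12 genes with the largest increase and the 12 with the largest decrease at P10 12 h, among genes called with the same sign on all arrays. Increases are large on every array, whereas Stpg2, Olfr17, Olfr1037, Gpr151 and Cenps are below -3 on array 3 and between -1.26 and -0.08 on the other arrays.

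The genes with the widest range between arrays, chosen by that range, were Gm20867, Gm20822, Gm20877, Ssty1, Sfi1 and Gm10845. Gm20867 gave 1.90, -0.40 and -1.63, Gm20822 2.12, 0.07 and -1.33, Gm20877 1.68, -0.28 and -1.66 and Ssty1 1.74, 0.12 and -1.56. These 4 genes belong to families that are repeated on the mouse Y chromosome. Xist, the RNA of the inactive X, gave -0.49, 0.77 and 3.38, while the Y-linked Ddx3y gave 1.19, 0.31 and -1.65 and Eif2s3y 0.58, 0.33 and -2.15. The HI and naive pools of array 3 thus differed in sex-linked transcripts, with Xist higher and Y-linked genes lower in the HI pool, and array 1 leaned the other way for Ddx3y. The paper describes its injured and control mice as sex matched. What part unequal sexes of the pools had in other ratios was not tested. Gm10845, with 2.54, -0.20 and 0.54, was itself read on a shared-profile probe. Sfi1, with 2.29, -0.53 and 0.38, was not but had the array order of those probes. None of the 6 was called, and without array 2 Sfi1 (1.34) and Gm10845 (1.54) were.

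The largest increases included chemokine and cytokine genes. Of 29 chemokine ligand genes listed, 28 were on the array, 19 passed the signal filter and 12 were called higher, with none lower, where 6.12% of all genes were. The median log2 ratio of the 19 was 2.55, 1.58 and 2.03 on arrays 1, 2 and 3, against -0.06, 0.01 and -0.02 over all genes. Cxcl10 and Ccl4 were among members that passed the signal filter through the HI pools alone. The filter thus raises this count and median in part, and they are no test of the list. Cxcl10, an interferon-induced ligand of Cxcr3 on T cells, had naive signals of 21.7, 4.51 and 5.21, not well above background on any array, and HI signals of 2110, 700 and 1650. It was at least 56.6-fold higher after HI (adjusted p = 7.1e-08). Ccl4 and Ccl3 are macrophage inflammatory proteins. Ccl4 rose from 40.8, 38.2 and 30.9 to 6950, 2840 and 4410 (mean log2 ratio 6.93 ± 0.36, adjusted p = 9.7e-10). Ccl3 rose from 116, 69.5 and 58 to 2360, 1000 and 1180, with ratios of 4.35, 3.85 and 4.35 that differed little between arrays (mean 4.18 ± 0.18, adjusted p = 8.2e-10). For both genes the lowest HI pool was far above the highest naive pool, which is no separate result for genes picked for their increase. The ligands of Ccr2, which attract monocytes, rose on every array: Ccl2 gave 4.52, 3.57 and 4.44, Ccl7 3.92, 3.5 and 4.71 and Ccl12 4.02, 2.82 and 3.48. Cxcl1, a neutrophil attractant, gave 2.70, 2.79 and 4.90, with a naive pool well above background on 1 of 3 arrays. Ccl9 (3.39, 2.64 and 3.52) and Ccl6 (2.55, 1.58 and 2.03), 2 chemokines of myeloid cells, rose as well. Ccl11, an eosinophil attractant, gave 2.86, 3.51 and 3.54 on a naive pool well above background on 1 of 3 arrays, and Ccl17 rose by 0.62 on average. Ccl5 (1.48, 0.14 and 1.98) was not called without array 1 (mean 1.06) or without array 3 (0.81). With each array left out in turn 10 of the 12 kept their call.

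Promoter sequences of members that rose are shown because their genes moved together and known elements of the inflammatory and metal responses lie in them. They run from 250 bases before to 50 bases after the start site and were taken from RefSeq on GRCm38.p6, 5′ to 3′ on the gene's strand. Capitals mark, on either strand, matches to 5 motifs: the NF-kB consensus, the core of the interferon-stimulated response element (ISRE, AAANNGAAA), the AP-1 site (TGANTCA), the sterol element core (CACCCCAC) and the core of the metal response element (MRE, TGCACNC or TGCGCNC). Overlapping matches run together.
Cxcl10 promoter, chr5:92348840-92349139, minus strand: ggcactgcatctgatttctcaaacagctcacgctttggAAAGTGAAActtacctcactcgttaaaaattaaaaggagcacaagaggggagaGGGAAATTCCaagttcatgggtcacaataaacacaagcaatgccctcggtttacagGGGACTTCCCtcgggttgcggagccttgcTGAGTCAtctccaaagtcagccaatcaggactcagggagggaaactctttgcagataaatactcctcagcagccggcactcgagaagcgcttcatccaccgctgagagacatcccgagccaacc
Ifit3 promoter, chr19:34583279-34583578, plus strand: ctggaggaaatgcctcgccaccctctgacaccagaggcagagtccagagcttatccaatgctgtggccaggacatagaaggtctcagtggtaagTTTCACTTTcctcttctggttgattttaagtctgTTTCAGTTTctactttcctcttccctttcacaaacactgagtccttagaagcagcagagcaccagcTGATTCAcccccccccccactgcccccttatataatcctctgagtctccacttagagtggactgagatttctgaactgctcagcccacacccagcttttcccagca
Isg15 promoter, chr4:156200769-156201068, minus strand: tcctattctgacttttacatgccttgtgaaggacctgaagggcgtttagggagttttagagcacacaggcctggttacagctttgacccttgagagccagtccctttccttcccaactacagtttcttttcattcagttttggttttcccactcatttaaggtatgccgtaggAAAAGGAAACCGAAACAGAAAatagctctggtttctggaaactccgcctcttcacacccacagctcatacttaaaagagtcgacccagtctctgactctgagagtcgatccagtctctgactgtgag
Mt2 promoter, chr8:94172368-94172667, plus strand: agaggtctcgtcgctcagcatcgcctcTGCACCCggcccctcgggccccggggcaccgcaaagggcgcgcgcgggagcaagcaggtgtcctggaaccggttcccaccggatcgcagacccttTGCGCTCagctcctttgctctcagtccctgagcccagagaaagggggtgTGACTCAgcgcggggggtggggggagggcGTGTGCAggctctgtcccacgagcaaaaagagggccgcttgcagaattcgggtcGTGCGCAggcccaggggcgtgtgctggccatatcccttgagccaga
The Cxcl10 window holds 2 NF-kB matches, 1 ISRE core and 1 AP-1 site, that of Ifit3 2 ISRE cores and 1 AP-1 site, that of Isg15 3 overlapping ISRE cores and that of Mt2 4 MRE cores and 1 AP-1 site. Of all 32851 promoters of this length, 4.51% hold the NF-kB consensus, 10.6% the ISRE core, 7.81% the AP-1 site, 2.87% the sterol element core and 25.7% the MRE core. A promoter entry was found for 16 of the 18 interferon response genes called higher, and 13 of these hold the ISRE core. It was found for 7 of the 12 chemokine genes, of which Ccl9, Cxcl1 and Cxcl10 hold the NF-kB consensus, and for 14 of the 17 early response genes, of which 0 hold the AP-1 site in this window.

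Cytokine genes rose around Il6 and Tnf. Of 28 listed, 27 were on the array and only 11 passed the signal filter, of which 6 were called higher and 1 lower. Il6 and Tnf passed it through the HI pools alone. Il6, which signals through Stat3 in glia, had naive signals of 7.32, 4.3 and 5.48 and HI signals of 978, 163 and 401. Its naive pools were not well above background on any array, so that it was at least 16.8-fold higher (adjusted p = 5.0e-06). Tnf was bounded in the same way at 5.50-fold or more, with HI signals of 340, 76.6 and 102 (adjusted p = 4.2e-07). Il1b, the form of interleukin 1 made by myeloid cells, gave ratios of 3.20, 2.30 and 3.26. Csf1, the growth factor of microglia, gave 2.19, 1.77 and 1.86, and Cntf, a factor for glia and neurons, 1.21, 1.35 and 1.15. Il11, a cytokine of the Il6 family, was uneven with 1.31, 0.44 and 2.12. Il18 was the member called lower, with -0.85, -0.89 and -0.61 (mean -0.78 ± 0.10, adjusted p = 2.1e-05), and its HI pools were below its naive pools on each array. Genes not tested included Il1a, Il1rn, Lif, Osm, Ifnb1 and Ifng.

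Receptors and feedback genes of these cytokines rose in part. Of 27 listed, 18 were tested, 8 were called higher and 0 lower. Socs3, an inhibitor induced by Stat3, gave 2.11, 1.17 and 1.92, and Stat3 itself 1.38, 0.54 and 1.27. Tnfrsf12a, the receptor of the Tnf relative Tweak, was nearly equal on the 3 arrays at 1.72, 1.66 and 1.75 (adjusted p = 5.8e-06). Osmr, the oncostatin M receptor, gave 2.05, 0.72 and 1.80. Il1r1 gave 1.09, 1.68 and 3.14 and was no longer called without array 3 (mean 1.39). In the NF-kB and Toll-like receptor list 20 of 31 were tested and 8 rose. Cd14, a coreceptor for bacterial lipids and cell debris, gave 2.96, 2.57 and 2.86, and Tlr2 2.43, 2.44 and 2.73. The inhibitor Tnfaip3 gave 0.92, 0.58 and 0.79 and the adaptor Myd88 0.73, 0.85 and 0.79. Nfkbia, which encodes the inhibitor I-kappa-B alpha, gave 1.48, 0.30 and 0.96 and lost its call without array 1 (mean 0.63). Tlr4 was not tested.

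Most tested interferon response genes rose. All 26 members tested of 38 listed had a positive mean, 23 of them on each of the 3 arrays, and 18 were called higher and 0 lower, with list medians of 1.29, 0.89 and 1.1. Ifit3 was among members that passed the signal filter through the HI pools alone. Ifit3, which blocks the translation of viral RNA and whose promoter is printed above, had naive signals of 97.4, 42.7 and 90.1 and HI signals of 363, 176 and 483 (mean log2 ratio 2.12 ± 0.25, adjusted p = 7.7e-06). Isg15, a ubiquitin-like modifier, went from 664, 558 and 619 to 2650, 988 and 2400 (mean 1.59 ± 0.37, adjusted p = 0.0026). Array 2 gave the smallest rise of Isg15, and each HI pool was above every naive pool. Usp18, the protease that removes Isg15, gave 3.00, 2.02 and 2.95, with naive pools well above background on 1 of 3 arrays. Gbp2 (2.63, 1.77 and 2.49), Gbp3 (1.32, 1.21 and 1.57) and Irgm1 (1.27, 1.44 and 1.17), GTPases induced by interferon, were even across the arrays. Irf1 and Irf8, transcription factors of the response, gave 1.32, 0.96 and 1.39 and 1.17, 1.16 and 0.94. Rsad2, the antiviral protein viperin, gave 1.74, 1.87 and 2.67. Oasl1, a relative of the RNA sensors of the Oas family, gave 1.35, 1.92 and 2.21, and its call was lost without any 1 of the arrays (means 2.06, 1.78 and 1.64). Isg20, an exonuclease, gave 1.05, 0.03 and 0.79 and was not called without array 1 (mean 0.41) or without array 3 (0.54). Calls of 13 of the 18 stood with each array left out. Ifi202b, an interferon-inducible gene outside the list, gave 3.83, 4.56 and 3.83 and on its second probe 4.26, 4.27 and 4.34. Interferon genes themselves, Ifnb1 and Ifng, did not pass the signal filter.

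Early response transcription factors were still high at 12 h. Of 33 listed genes 27 were tested, 17 were called higher and 0 lower, with medians of 0.67, 0.52 and 1.22. Atf3 and Maff were among members that passed the signal filter through the HI pools alone, which raises this count and median in part. Atf3, a stress-induced factor of the Atf family, went from 116, 56.6 and 53.7 to 1720, 792 and 1550 (mean 4.18 ± 0.28, adjusted p = 1.5e-08). Maff, a small Maf protein, had naive pools not well above background and was at least 10.0-fold higher (adjusted p = 7.1e-08). Fos and Jun form the AP-1 dimer. Fos gave 3.11, 2.35 and 3.30 and Jun 2.15, 1.18 and 2.04, and in both array 2 was lowest. Jund, a further Jun gene, gave 1.27, 0.88 and 1.45 (mean 1.20 ± 0.12, adjusted p = 1.4e-06). Gadd45b (1.70, 1.13 and 1.73) and Gadd45g (1.6, 0.87 and 1.61), stress genes of growth arrest, rose on each array. Among neuronal activity genes Nr4a1 gave 1.1, 0.63 and 1.28, Fosb 1.13, 0.86 and 1.48 and Arc 0.49, 0.36 and 0.96, and Arc was no longer called without array 3 (mean 0.43). Egr1 (1.02, 0.39 and 1.22) lost its call without array 1 (mean 0.81) or without array 3 (0.71). Klf4 (1.66, -0.11 and 0.69) was below 0 on array 2 and lost its call without array 1 (0.29) or array 3 (0.77). Calls of 11 of the 17 stood with each array left out.

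The genes differed in their course over the time points. Mean log2 ratios of Fos at 3, 6, 12 and 24 h were 5.58, 4.24, 2.92 and 1.85. Cxcl10 had 3.72, 6.82, 7.40 and 7.04, on a naive signal near background. Usp18 went from -0.24 and 0.93 to 2.66 at 12 h and 2.69 at 24 h. Vim, an intermediate filament of reactive astrocytes, had 0.70, 1.47, 2.06 and 2.85. Of these 4 genes, the differences of Fos and Vim between 12 and 24 h were called (adjusted p = 0.048 and 0.029), while adjusted p for 12 against 6 h was 0.102 for Fos, 0.88 for Cxcl10, 0.17 for Usp18 and 0.29 for Vim. Mt2 and Ccl3 had their highest mean at 12 h.

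**Figure D3:**
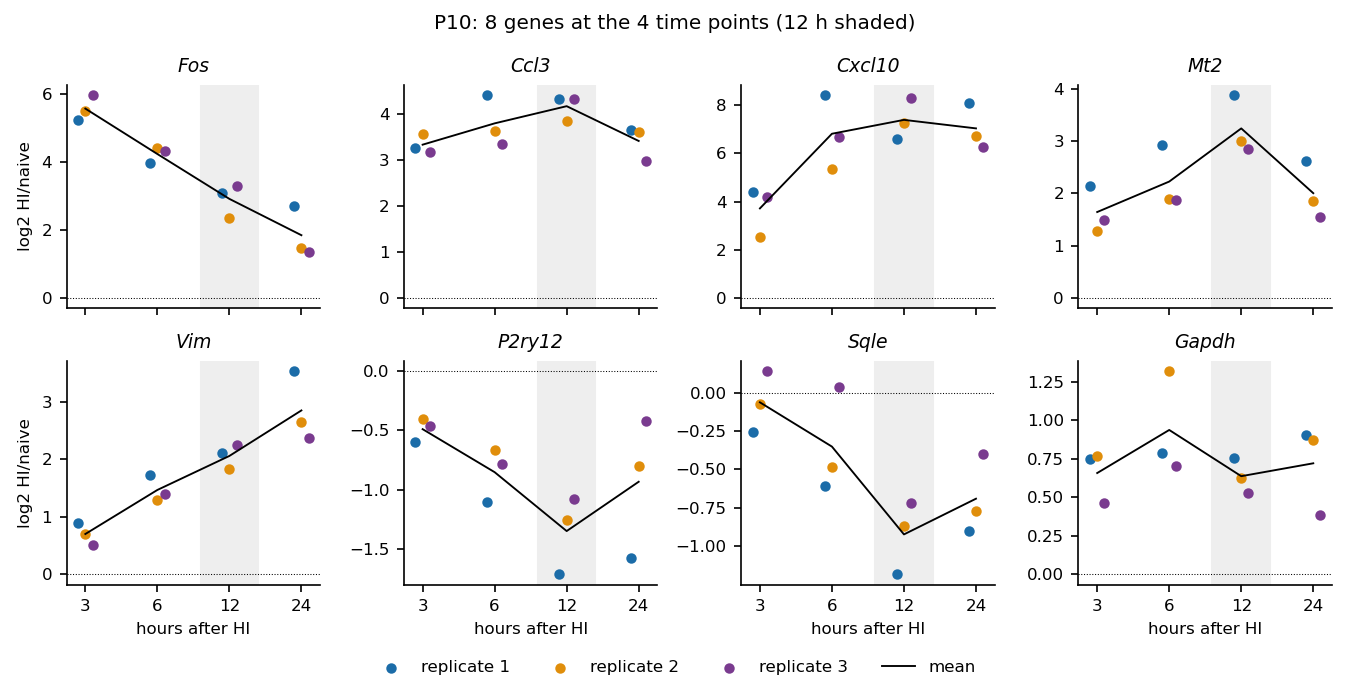
Log2 HI over naive ratios of 8 genes at the 4 P10 time points (3, 6, 12, 24 h), with 12 h shaded. Points are single arrays colored by replicate number, the line joins the means, and each panel has its own vertical axis. The mean of Fos is highest at 3 h and that of Vim at 24 h, and P2ry12 and Sqle had their lowest mean at 12 h.

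Both Mt1 and Mt2, metallothionein genes, rose. Mt2, a zinc-binding protein gene whose promoter is printed above, went from 6890, 5050 and 5920 in naive pools to 102000, 40300 and 42500 in HI pools (mean log2 ratio 3.24 ± 0.24, adjusted p = 7.1e-08). Mt1, its neighbour with the same function, went from 18100, 12500 and 16400 to 151000, 67100 and 72100 (mean 2.54 ± 0.21, adjusted p = 3.2e-07). All HI pools were above all naive pools for both, and array 1 was highest. Hmox1, which degrades heme, gave 2.06, 1.45 and 2.02, and Nfe2l2, the regulator of antioxidant genes, 0.95, 0.72 and 0.69. In the antioxidant list 26 genes were tested and 6 rose, beside 6.12% of all tested genes. Cat was 1 of the 6, on a shared-profile probe, and was not called without array 1 (mean 0.30) or array 3 (0.83). Nqo1, Gclm, Srxn1, Txnrd1 and other targets of Nfe2l2 were not called. Mt3, the metallothionein of brain, was not called either.

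Stress responses of protein folding and translation rose in part. Of 27 heat shock and chaperone genes 25 were tested and 5 rose, beside 6.12% of all tested genes. Hspa1a gave 1.76, 2.16 and 3.22, Hspb1 1.82, 1.07 and 2.16 and Bag3 1.11, 1.26 and 1.58. Hspb8 gave 1.14, 1.03 and 1.12 and Hspb6 0.95, 0.75 and 0.84. These 5 kept their call with each array left out. Hspa1a has a near copy, Hspa1b, which did not pass the signal filter, and the signal may belong to both. Hspa5, Hsp90b1 and other chaperones of the endoplasmic reticulum were not called. In the list of the integrated stress and unfolded protein responses 30 of 31 were tested and 11 rose. Atf4, the central factor of the integrated stress response, was nearly equal on the 3 arrays with 0.87, 0.94 and 0.99 (mean 0.93 ± 0.08, adjusted p = 5.8e-07). Its targets Trib3 (0.64, 1.30 and 1.5), Chac1 (0.52, 0.98 and 0.50) and Slc3a2 (1.00, 0.86 and 0.84) rose, but Trib3 was not called without array 3 (mean 0.97) nor Chac1 without array 2 (0.51). Ppp1r15a, which ends the translation block, gave 1.12, 0.86 and 1.41, and Cebpb 1.78, 1.40 and 1.92. Ddit3, Asns and Xbp1 were not called.

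Some genes of the hypoxia response and glycolysis rose. Of 38 listed 32 were tested, 6 rose and 0 fell, beside 6.12% of all tested genes that rose, and medians were 0.20, 0.38 and 0.05. Slc2a1, the glucose transporter of endothelium and glia, gave 1.44, 0.96 and 2.11 (mean 1.5 ± 0.19, adjusted p = 2.0e-05). Adm, the vasodilator adrenomedullin, was uneven with 1.20, 0.70 and 2.57. Pfkfb3, which drives glycolytic flux, gave 1.16, 1.08 and 1.65, and Hk1 0.64, 0.63 and 0.85. Gapdh and Eno1 were just past the threshold with means of 0.64 ± 0.11 and 0.63 ± 0.10, and neither passed without array 1 (0.58 and 0.56). Vegfa, Pdk1, Bnip3 and Ldha, targets of the hypoxia-inducible factor, were not called. Among 27 tested genes of the p53 response and cell death 5 rose. Fas, the death receptor, gave 2.67, 2.28 and 2.62, Pmaip1, the death protein Noxa, 2.23, 2.33 and 2.15 and Cdkn1a, a cell cycle inhibitor, 1.04, 0.92 and 1.00. These 3 were even over the arrays and kept their call with each array left out. Bbc3, Bax and Mdm2 were not called.

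Microglial genes moved both ways. Of 23 markers of homeostatic microglia 22 were tested, 9 were called higher and 6 lower. Lower were P2ry12 and P2ry13, given above, Slc2a5 (-1.24, -0.95 and -1.11), a fructose transporter, Selplg (-0.96, -0.85 and -1.02), a selectin ligand, Tmem119 (-1.10, -0.84 and -0.23) and Gpr34 (-0.79, -0.39 and -0.62), the last 2 no longer called without array 1 (means -0.53 and -0.51). Higher were P2ry6, a receptor that triggers phagocytosis, with 1.18, 1.08 and 1.33, Cx3cr1, the fractalkine receptor, with 0.85, 0.74 and 0.71, and the complement C1q genes C1qa, C1qb and C1qc, of which C1qc gave 1.28, 0.92 and 1.02 (adjusted p = 1.4e-05). C1qa was not called without array 1 (mean 0.54). Siglech and Itgam were called on shared-profile probes only, and neither without array 1 (0.24 and 0.31) or array 3 (1.04 and 0.89). Csf1r, Trem2, Tyrobp and Aif1 were not called. The markers of 1 cell type thus did not move together: P2ry12 was below its naive pool on each array while Cx3cr1 was above it.

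Most tested genes of activated phagocytes rose. Of 34 listed 22 were tested, 14 rose and 0 fell, with medians of 1.07, 0.60 and 0.79, and 10 kept their call with each array left out. Msr1 was among members that passed the signal filter through the HI pools alone. Lgals3, a galectin of phagocytes, went from 403, 216 and 269 to 4100, 1420 and 2870 (mean 3.16 ± 0.18, adjusted p = 2.7e-09). Spp1, the secreted protein osteopontin, went from 210, 69.4 and 67.7 to 1890, 540 and 346 (mean 2.83 ± 0.32, adjusted p = 6.5e-06). Msr1, a scavenger receptor, had naive pools not well above background and was at least 3.45-fold higher (adjusted p = 1.0e-05). Plek (2.58, 1.96 and 1.84), a protein kinase C substrate, Ms4a6d (1.62, 1.61 and 0.92) and Cd63 (0.97, 0.58 and 0.76) rose on each array. Outside the list, Lilrb4a, an inhibitory receptor of myeloid cells, gave 4.10, 3.22 and 3.88. Saa3, an acute phase protein made by macrophages, gave 3.87, 3.38 and 5.64 with a naive pool well above background on 1 of 3 arrays. Gpnmb, Cst7, Itgax and Clec7a did not pass the signal filter. Of 10 tested complement genes beside C1q 3 rose. Clu, the chaperone clusterin, gave 0.98, 0.61 and 0.94. C3ar1, the receptor of a C3 fragment, gave 1.03, 0.25 and 1.43 and was not called without array 3 (mean 0.64). C4b gave 1.12, 0.25 and 0.84 and was not called without array 1 (0.54) or array 3 (0.69). C3 was not called.

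Markers of blood leukocytes were uneven over the arrays. Of 24 neutrophil genes 11 were tested and 5 were called higher, and medians were 1.5, 0.16 and 0.89. S100a9 and S100a8, calcium-binding proteins stored in neutrophils, gave 2.18, 0.85 and 2.72 and 1.86, 0.72 and 2.32. Neither was called without array 1 (means 1.79 and 1.52) or without array 3 (1.52 and 1.29), and 0 of the 5 kept their call with each array left out. Csf3r, the receptor of the neutrophil growth factor, was read on a shared-profile probe and not called without array 1 (0.42), and Lcn2 is also made by reactive astrocytes. Ltf, Cxcr1 and Mmp9 were not above background on any of the 3 arrays in either dye. Of 13 erythroid genes 9 were tested and 3 were called higher, Hemgn on a shared-profile probe and 2 alpha-globin genes. These 2 had the array order of the neutrophil medians, with 1.62, 0.30 and 1.13 for Hba-a2 and 1.20, -0.08 and 0.87 for Hba-a1. Hba-a1 was not called without array 1 (0.40) or array 3 (0.56). The beta-globin genes Hbb-b2, Hbb-bt and Hbb-bs were not called, nor were Alas2 and Slc4a1. The part of blood in these values was not tested. Of 16 monocyte genes 8 were tested and 1 rose, Ly6c1 with 1.44, 0.69 and 1.14, which endothelium also makes. Ccr2, the receptor of the Ccl2 group, did not pass the signal filter. Of 21 lymphocyte genes 7 were tested and 0 changed.

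Most tested reactive astrocyte genes rose. Of 27 listed 20 were tested, 13 were called higher and 0 lower, medians were 1.06, 0.73 and 1.09, and 8 kept their call with each array left out. Ptx3 was among members that passed the signal filter through the HI pools alone. Emp1, a membrane protein, went from 304, 156 and 299 to 2390, 1360 and 2690 (mean 3.09 ± 0.25, adjusted p = 1.8e-07). Vim went from 988, 660 and 639 to 4240, 2350 and 3020 (mean 2.06 ± 0.16, adjusted p = 1.5e-07). Serpina3n, a protease inhibitor, gave 1.84, 1.26 and 1.57, Aspg, an asparaginase, 2.08, 0.93 and 2.25, and S1pr3, a sphingosine phosphate receptor, 1.17, 1.17 and 1.39. Gfap, the classical filament, gave 1.15, 0.90 and 0.41 and was not called when any 1 of the arrays was left out, with means of 0.66, 0.78 and 1.03 without arrays 1, 2 and 3. Microglia and other cells also make some of these products, Vim and Cd14 among them. Among 18 markers of homeostatic astrocytes 6 rose and 0 fell. Slc1a2, the main glutamate transporter, went from 790, 418 and 540 to 2150, 862 and 1750 (mean 1.39 ± 0.23, adjusted p = 2.1e-04). Aldh1l1 gave 0.80, 0.58 and 1.02 and Mlc1 0.86, 0.50 and 0.79. Aqp4, Gja1 and Sox9 were not called.

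Vessel genes that rose included matrix proteases and an inhibitor of them. Of 46 listed 31 were tested, 12 rose and 0 fell, but 5 kept their call with each array left out. Timp1, an inhibitor of matrix proteases, went from 115, 68.5 and 72.7 to 956, 403 and 714 (mean 2.97 ± 0.18, adjusted p = 4.8e-09). Plaur, the urokinase receptor, gave 1.6, 1.16 and 1.86. Adamts1, a matrix protease, gave 2.31, 1.11 and 2.53, and Esm1, a product of activated endothelium, 0.77, 2.09 and 2.15. Angpt2, an antagonist of the vessel receptor Tie2, gave 1.23, 1.21 and 1.62 and was not called without array 3 (mean 1.22). Flt1, a receptor of Vegfa, gave 1.93, -0.44 and 0.89, in the array order of the shared profile, and was not called without array 1 (0.23) or array 3 (0.75). Of the genes that mark endothelium, Cdh5, a cadherin of its junctions, rose with 1.21, 0.75 and 1.48, and Cldn5, Pecam1 and Kdr were not called.

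**Figure D4:**
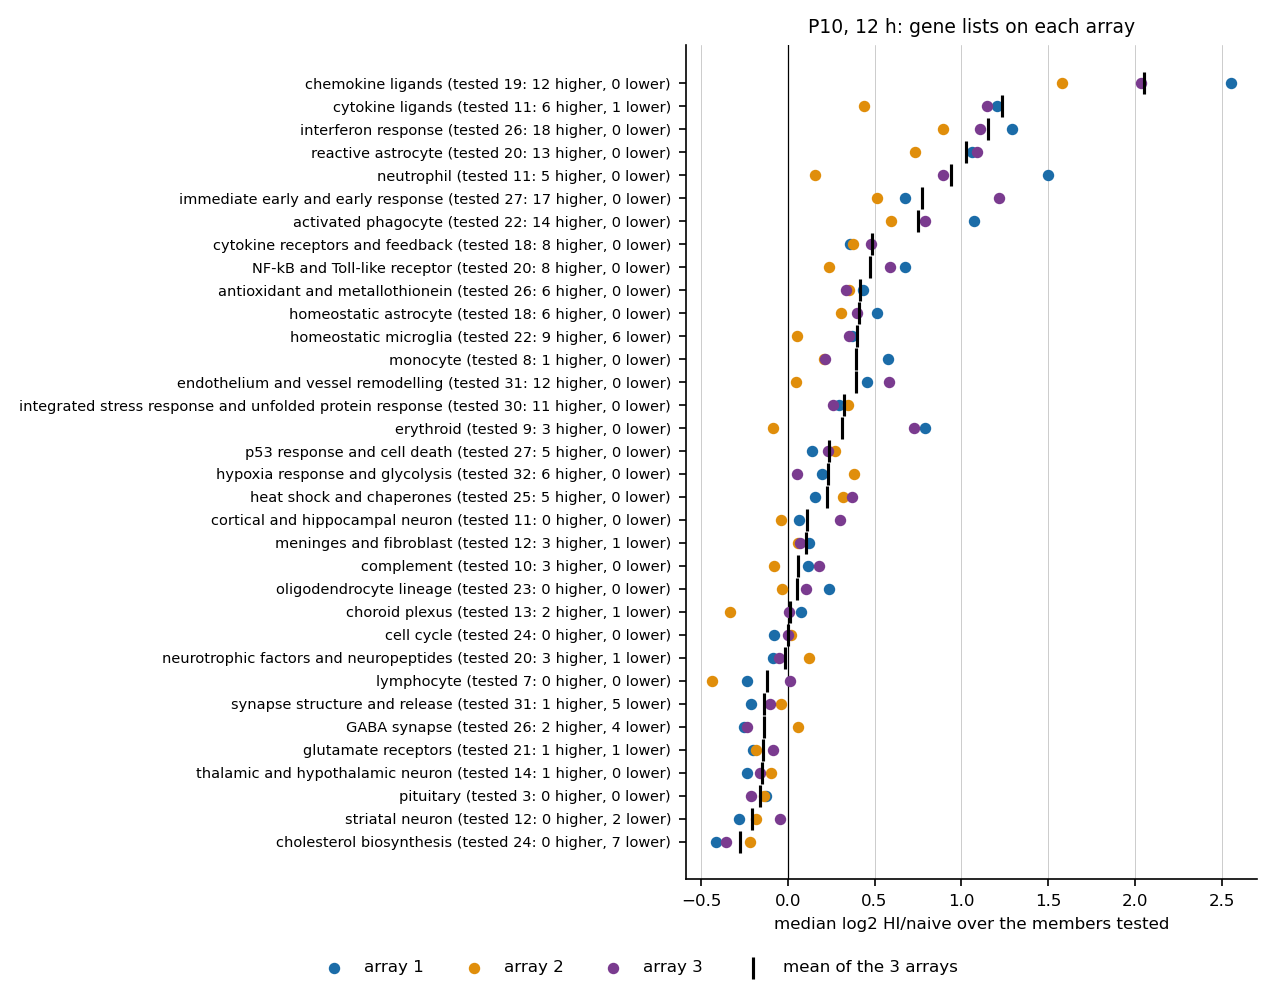
Median log2 HI over naive ratio of the tested members of each gene list on each of the 3 arrays (colored points) and of their mean ratios (black bars), with the number tested, called higher and called lower beside each name. Chemokine, cytokine, interferon and reactive astrocyte lists lie right of 0 on every array, cholesterol biosynthesis lies left of 0 on every array, and the neutrophil and erythroid lists are near 0 on array 2. Members that passed the signal filter through the HI pools alone are included.

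Cholesterol biosynthesis was the list with most decreases. All 24 genes were on the array and tested, 7 were called lower and 0 higher, where 4.02% of all genes were lower, and 17 were below 0 on each of the 3 arrays. Medians were -0.41, -0.22 and -0.36. Sqle, the squalene epoxidase, went from 8360, 5370 and 7940 to 3680, 2940 and 4830 (mean -0.92 ± 0.16, adjusted p = 3.0e-04). Each HI pool was below every naive pool. Idi1, an isomerase of the pathway, gave -0.78, -0.69 and -0.78 and Mvd, the mevalonate decarboxylase, -0.94, -0.71 and -0.75. Mvk, the mevalonate kinase, gave -0.70, -0.66 and -0.59. Msmo1 gave -0.91, -0.43 and -0.43 and was not called without array 1 (mean -0.43), and the other 6 kept their call with each array left out. Fdft1, Lss, Dhcr7, Insig1 and Srebf2 were not called. A promoter entry was found for 4 of the 7, and 0 hold the sterol element core in this window.

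Some neuronal genes fell, beside 4.02% of all tested genes that did. Among 31 tested genes of synapse structure and release 5 fell and 1 rose, the latter, Cplx2, on a shared-profile probe. Nrxn3, a presynaptic adhesion molecule, went from 2600, 1760 and 2930 to 1290, 1000 and 1570 (mean -0.91 ± 0.13, adjusted p = 5.4e-05). Ntng1, a netrin relative on axons, gave -1.09, -0.61 and -1.12, and Nlgn3, a postsynaptic partner of neurexins, -0.79, -0.48 and -0.74. Nlgn1 gave -1.05, -0.40 and -0.49 and was not called without array 1 (mean -0.44), and Slitrk6 gave -0.85, -0.32 and -1.0. Of 26 genes of the GABA synapse 4 fell and 2 rose, one of the latter, Lhx6, on a shared-profile probe. Gabra4 gave -1.30, -0.56 and -0.97 and kept its call with each array left out, while Gabra5 (-0.91, -0.38 and -0.59) was not called without array 1 (-0.49). Both encode receptor subunits. Of 21 tested glutamate receptor genes Grm7 fell (-1.01, -0.43 and -0.72) and Grin2b rose (0.57, 0.79 and 1.53), Grm7 not without array 1 (-0.57) and Grin2b not without array 3 (0.68). Of 12 tested striatal markers 2 fell, among them Drd1, a dopamine receptor, with -0.81, -0.30 and -0.94, which was not called without array 3 (-0.55). Gad1, Syt1, Snap25, Slc17a7, Camk2a and Dlg4 were not called. Tested markers of cortical and hippocampal neurons (11), of the oligodendrocyte lineage (23) and of the cell cycle (24) gave 0 calls. Vgf (0.64, 0.58 and 0.62) and Nptx2 (0.47, 1.12 and 0.83), secreted proteins induced by activity, rose, and Ntf3, the factor neurotrophin 3, fell with -1.02, -0.14 and -0.82 but was not called without array 1 (-0.48) or array 3 (-0.58).

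Markers of brain cell types were detected. All 18 astrocyte and 23 microglia markers, all 13 striatal markers and 23 of 24 oligodendrocyte markers on the array were well above background in all naive pools of the 3 arrays. So were 14 of 17 cortical and hippocampal markers and 15 of 18 thalamic and hypothalamic markers. Of choroid plexus genes 13 were tested, and Aqp1 (0.73, 1.27 and 1.35) and Steap1 rose while Kcne2 fell, but Kcne2 was not called without array 1 (-0.50), nor Steap1 without any 1 of the arrays (means 0.72, 0.80 and 0.90). Ttr, the main choroid plexus product, was not called. Of 12 meningeal and fibroblast genes 3 rose and 1 fell, Ogn with -1.35, -0.77 and -0.55. Of all tested genes 6.12% rose and 4.02% fell. Of 14 tested thalamic and hypothalamic markers Rora alone was called. The 3 tested pituitary markers were not called. Unnamed features of the array added 203 higher and 155 lower of 4560 tested.

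Between 6 and 12 h few genes differed. The question was what the 12 h samples held that the 6 h samples of the same age and slides did not. Among 13081 genes tested 17 had a higher log2 ratio at 12 h (0.13%) and 6 a lower one (0.0459%). Cntf was higher at the later time. Its log2 ratios were 1.21, 1.35 and 1.15 at 12 h and -0.05, 0.25 and 0.51 at 6 h (difference 1.00 ± 0.15, adjusted p = 0.026). Omg, a myelin glycoprotein of oligodendrocytes, was below 0 at 6 h (-0.98, -0.49 and -0.91) and above it at 12 h (0.15, 0.49 and 0.39). Angpt1, which stabilises vessels through Tie2, gave -0.79, -0.75 and -0.49 at 6 h and 0.46, 0.74 and -0.03 at 12 h. Klhl35 and Bbs12 were the other 2 of the 5 genes with the largest positive difference, with differences of 1.01 ± 0.19 and 0.86 ± 0.15. Lower at 12 h were the tubulin genes Tuba1b (-0.80, -0.36 and -0.66 against 0.08, 0.86 and 0.29 at 6 h) and Tuba4a (-0.98, -0.55 and -0.78 against -0.08, 0.60 and 0.11), and 2 genes of cholesterol synthesis. Mvd gave -0.94, -0.71 and -0.75 at 12 h and -0.08, 0.40 and 0.11 at 6 h, so that it was near 0 first and low later. Fdft1, the squalene synthase, gave -0.61, -0.31 and -0.43 and 0.13, 0.94 and 0.39. The median difference of the 24 cholesterol genes was -0.58, and 2 of them passed the test. Msantd1 completed the 5 lower genes with -0.68 ± 0.12. Within slides the difference of Cntf was 1.25, 1.1 and 0.64, that of Mvd -0.86, -1.11 and -0.86, and with the slide as a block the counts were 80 higher and 44 lower. Leaving out single arrays gave from 0 to 45 higher and 0 to 19 lower, with 0 of either without 12 h array 1 or without 6 h array 2, where limma's unadjusted p under 0.05 was met by 219 higher and 92 lower and by 211 and 66.

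At the same 12 h, P5 and P10 differed in more genes. Age and slide cannot be told apart in this comparison, since each slide held 1 age. Of 13570 genes 132 had a higher ratio at P10 (0.973%) and 52 a lower one (0.383%). Atf3 had positive ratios at both ages, with 3.89, 3.81 and 4.85 at P10 and 2.51, 2.37 and 2.78 at P5 (difference 1.63 ± 0.39, adjusted p = 0.034). Ccl3 gave 4.35, 3.85 and 4.35 at P10 and 2.53 and 3.23 on the 2 P5 arrays with a value (difference 1.30 ± 0.29, adjusted p = 0.029). Mt2 gave 3.89, 3.00 and 2.84 and 2.55, 1.71 and 1.68. These 3 genes were picked for a large difference, so the lack of overlap between their P10 and P5 arrays is no separate result. Fras1, a matrix protein gene, gave 1.77, 0.56 and 1.05 at P10, with 2 of 3 naive pools well above background, and -0.46, -0.29 and 0.04 at P5. Cbl, a ubiquitin ligase, was also higher at P10, but 0 of 3 P10 naive pools were well above background on its probe, so the size of its difference is not measured.

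Members of the lists that differed between the ages were all higher at P10. Glycolytic genes were among them: Hk1 gave 0.64, 0.63 and 0.85 at P10 and -0.25, -0.42 and -0.02 at P5, and Gapdh and Eno1 differed by 0.63 ± 0.16 and 0.59 ± 0.15. Atf4 gave a mean of 0.93 at P10 and 0.27 at P5, and Jund 1.20 and 0.28. Some neuronal genes were below 0 at P5 and at or above it at P10. Syt1, the calcium sensor of vesicle release, gave 0.01, 0.16 and -0.10 at P10 and -0.80, -0.65 and -0.71 at P5 (adjusted p = 0.015). Syn1, Camk2b, Grin1, Gabrb1, Vgf and Nptx2 had positive means at P10 and negative ones at P5. Hmgcs1, the first committed step of cholesterol synthesis, was at 0.12 at P10 and -0.79 at P5. Lower at P10 were Phox2a, whose naive pools were well above background on 0 of 3 arrays at either age so that the size of its difference is not measured, Ifi27l2a, an interferon-induced gene (0.58, -0.12 and 0.43 against 1.38, 1.24 and 1.54), Cd209f, Rmrp and Aspa, an enzyme of oligodendrocytes (-0.83, -0.50 and -1.12 against 0.47, 0.22 and -0.26). The counts rest on single arrays. With 1 array left out they ranged from 0 to 210 higher and 0 to 146 lower, and they were 0 without P10 array 3, without P5 array 1 and without P5 array 2, where 228 higher and 167 lower, 312 and 110, and 280 and 210 had an unadjusted p under 0.05.

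**Figure D5:**
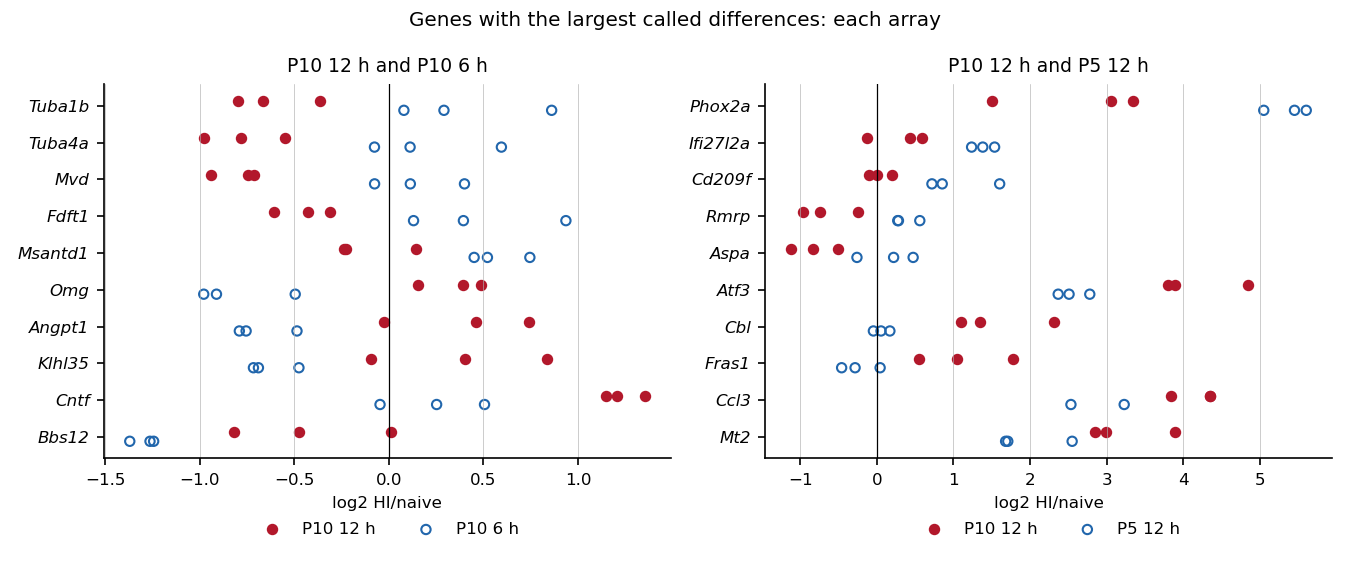
Log2 HI over naive ratios on each array for the genes with the largest called differences between P10 12 h (filled) and P10 6 h (open, left panel) or P5 12 h (open, right panel). In the left panel Cntf and Omg are higher and Tuba1b and Mvd lower at 12 h, and in the right panel Atf3, Ccl3 and Mt2 are higher at P10. The genes were picked for their difference, so a lack of overlap is no separate result. Ccl3 has 2 arrays at P5.

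Between 12 and 24 h many more genes differed, but the count hung on single arrays. Of 13077 genes 632 had a higher ratio at 12 h (4.83%) and 340 a lower one (2.6%). Without 12 h array 1 these were 3 and 16, without 12 h array 3 0 and 3 (813 and 565 at unadjusted p under 0.05 in limma), and without 24 h array 1 8 and 20. The 3 largest differences in favor of 24 h were Tgm1, a transglutaminase, Clec4d, a lectin of myeloid cells, and Gpnmb, a glycoprotein of phagocytes. In all 3 genes 0 of 3 naive pools were well above background at 24 h, so the size of the difference is not measured. The mean HI signal of Tgm1 was 51.6 at 12 h and 253 at 24 h, that of Clec4d 88.0 and 372, and that of Gpnmb 51.6 and 215. The 3 largest in favor of 12 h were Gm6588, A630075F10Rik and Pde6a. Pde6a gave 2.05, -0.11 and 0.82 at 12 h and -2.98, -1.43 and -0.27 at 24 h, high on array 1 of 12 h and low on array 1 of 24 h as the shared-profile probes were. Reactive astrocyte genes Vim, Gfap, S1pr3 and Ptx3 had lower ratios at 12 h, as had 6 of 25 tested cell cycle genes, Cdk1, Ccnd1 and Mcm2 among them.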

How the data were processed

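RNA of pooled hemispheres was hybridised to two-color Agilent 4x44K mouse arrays and scanned by the authors. The authors used Agilent Feature Extraction 10.5.1.1 to give, for each spot, a processed signal intensity per dye, already background-subtracted and dye-normalized with Lowess. The deposited series table holds the log10 ratios of the same arrays, which matched the processed signals. From these, the log2 of Cy5 over Cy3 was computed per spot, control spots and outlier-flagged spots (203, 237 and 284 on arrays 1, 2 and 3) were left out, and spots of a probe were averaged. HI was in Cy5 on all 24 HI arrays, so the dye is not balanced. Its bias was estimated on the 8 dye-swapped naive arrays and subtracted in an alternative. Values at a signal near background are imprecise, and the number of arrays limits the precision.

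Probes were named through RefSeq tables: 27421 of 39429 probes had a gene, 20828 genes in all. A gene was read on its brightest tested probe. Limma 3.58.1 in R 4.3.3 was fitted to all 24 HI arrays with 1 coefficient per age and time, so that the spread was shared between the 8 groups, and each coefficient was tested against 0 or against another. All probes with a mean signal of 100 or more in 1 dye and a value on 2 or more arrays were tested, and the Benjamini-Hochberg adjustment ran over them. A call needed adjusted p under 0.05 and 1.5-fold. A gene not well above background in any naive pool was given as "at least" a fold, against the lowest detected signal of the array. Named were the 12 genes with the largest increase and decrease among those called with the same sign on all 3 arrays, the 6 with the widest range, the 5 (3 for 24 h) with the largest difference each way, and members of 35 lists with 850 of 865 entries on the array. The members and lists were chosen with earlier results of these data known. Some list members are counted but not reported here by name. The fit was tested on simulated data with independent noise of the same spread on all arrays. The real arrays were not of this kind, so the simulation does not show how the fit behaves on arrays as uneven as these. Alternatives were the log ratios of the series table, normexp with loess, median centring, the dye bias, no signal filter, a filter on background, another choice of probe, array weights, the slide as a block, the 3 arrays alone, the methods' test, a 2-fold rule, and leaving out each array. Python 3.11.15, pandas 2.3.3 and numpy 2.4.6 were used for summaries.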

Additional observations from a re-analysis of the deposited data

Results flagged for a closer look

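The ratio of HI over naive differed by a test between P10 12 h and 3 other groups, and the genes with the largest differences are given here. Against P10 6 h, 17 genes had a higher log2 ratio at 12 h and 6 a lower one. The lower ones were led by Tuba1b (-1.02), Tuba4a (-0.98), Mvd (-0.94), Fdft1 (-0.94) and Msantd1 (-0.68), and the higher ones by Omg (1.14), Angpt1 (1.07), Klhl35 (1.01), Cntf (1.00) and Bbs12 (0.86).

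Against P5 12 h, 132 genes were higher at P10 and 52 lower. Phox2a (-2.73), Ifi27l2a (-1.09), Cd209f (-1.03), Rmrp (-1.03) and Aspa (-0.96) had the largest negative differences, and Atf3 (1.63), Cbl (1.53), Fras1 (1.36), Ccl3 (1.30, with 2 arrays at P5) and Mt2 (1.26) the largest positive ones. The naive pools of P10 12 h were well above background on 0 of 3 arrays for Phox2a and Cbl, so these 2 sizes are not measured. Age and slide cannot be told apart here.

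Against P10 24 h, 632 genes were higher at 12 h and 340 lower. Tgm1 (-4.53), Clec4d (-3.22) and Gpnmb (-3.17) were lower, and Gm6588 (3.09), A630075F10Rik (2.61) and Pde6a (2.48) higher. The naive pools of 24 h were well above background on 0 of 3 arrays for Tgm1, Clec4d and Gpnmb, so these 3 sizes are not measured. The part of the shared-profile probes in the higher genes was not tested beyond leaving them out, which gave 414.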

How the results depend on the processing

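The counts at P10 12 h moved more with the choice of arrays than with most settings. On the 3 arrays alone limma called 160 genes higher and 46 lower. Centring on the median gave 336 lower, normexp 119 lower and array weights 974 higher and 746 lower. The methods' test gave 440 and 333 without adjustment and 0 and 0 after it, and a change over 2-fold on at least 2 of 3 arrays was seen in 244 and 46 genes. With 1 array left out the counts ranged from 549 to 1088 higher and from 328 to 975 lower.

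Against P10 6 h, the fit with the replicate block gave 80 higher and 44 lower and a random block 86 and 47. Centring gave 3 and 1, normexp 2 and 1, no signal filter 0 and 0 (382 and 226 at unadjusted p under 0.05 in limma) and array weights 0 and 0 (192 and 141). With 1 array left out the ranges were 0 to 45 and 0 to 19. Against P5 12 h, the replicate block gave 241 and 182, centring 20 lower, normexp 78 and 10, no signal filter 0 and 0 (479 and 499 unadjusted) and array weights 418 and 245, with ranges of 0 to 210 and 0 to 146. Against P10 24 h, normexp gave 15 lower, array weights 789 lower, and leaving out the shared-profile probes, a setting chosen after seeing the data, 414 higher, with ranges of 0 to 899 and 3 to 743. The causes were not tested. Same-numbered P10 samples lay on 1 slide, and they did not deviate together in every pair (r of deviations 0.46, 0.51 and 0.03 with 6 h, -0.59, -0.04 and -0.12 with 24 h).

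Single genes that changed sign were mostly those picked for their range. Gm20867 was at 0.025 after centring and 0.054 after normexp, and ranged up to 0.75 with an array left out, from -1.02. Gm20822 was at -0.034 with the dye bias subtracted and from -0.63 to 1.09 with an array left out. Gm20877 was at 0.27 on its probe of largest change and from -0.97 to 0.70 with an array left out. Ssty1 was at -0.19 on that probe and from -0.72 to 0.93, and Sfi1 from -0.076 to 1.34. Siglech (-0.10) and Lhx6 (-0.042) changed sign without the shared-profile probes.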
